A study of Homo sapiens with 11 samples.

Results

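RNA recovered with RPS19 carrying the R62W substitution was set against RNA recovered with the wild-type protein (WT). Enriched windows, stretches of a transcript of up to 100 bases with more immunoprecipitated (IP) than input reads, were matched on chromosome, start, end and strand, and repeat elements were matched on their name. Of the 122708 windows listed in any IP group of the series, 89706 were listed for R62W or WT and are described here, as were 241 of 326 repeat elements. The 6 IP libraries behind them are 3 replicates of R62W and 3 of WT, out of 11 samples in the series. Both groups were HEK293T cells, a line from human embryonic kidney in which SV40 large T antigen is expressed. R62W cells had been transfected with a plasmid for V5-tagged RPS19 R62W and WT cells with one for V5-tagged wild-type RPS19, and a V5 antibody was used for both. Both were measured against 3 size-matched inputs from crosslinked cells without a plasmid. The tagged protein was therefore overexpressed beside the cells' own RPS19 in both groups. The labels do not say whether replicates came from separate cultures, so a p-value here reflects only how far these samples differ, and that spread may be technical.

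RPS19 is a protein of the small (40S) ribosomal subunit that is needed for late steps of 18S rRNA maturation. Mutations in its gene are the best-known cause of Diamond-Blackfan anemia, a failure of red cell production, and R62W is one of the substitutions found in patients. Enhanced crosslinking and immunoprecipitation (eCLIP) joins protein and RNA with ultraviolet light and sequences the RNA fragments that stay with the precipitated protein, so a ribosomal protein can bring down rRNA, mRNA held by ribosomes and other RNA near it.

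Each list was made from all replicates of its group, and a window entered it if it passed in at least 2 replicates. Enrichment is the authors' log2 odds ratio of IP over input, relative to a baseline for windows of like G and C content. Over windows with at least 50 pooled input reads, the baseline IP to input ratio of R62W was 0.918 to 0.993 times that of WT across bins of G and C content. A window missing from a list has no value there, so absence is not a measured 0. Of the 5 HEK293T markers checked, IGF2BP1 had 5 windows in WT and 17 in R62W, LIN28B had 1 in R62W, and PAX2, SALL4 and NEFM had none. None of 7 erythroid markers, among them the globin gene HBB and the regulator GATA1, had a window in either list.

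Most windows of the comparison were listed for R62W alone. Of the 89706 windows, 12263 were in both lists, 74304 in R62W only (82.8%) and 3139 in WT only (3.5%). Shared windows made up 79.6% of the WT list (95% exact Clopper-Pearson interval 79.0 to 80.3) and 14.2% of the R62W list (13.9 to 14.4). These intervals cover counting error only, and with 1 list per group the lengths have no test. R62W-only windows had a median of 43 IP and 12 input reads and a median log2 odds ratio of 1.86. WT-only windows had a median of 32 IP and 3 input reads, a median log2 odds ratio of 2.73, and no input read at all in 12.1% of cases. Of the shared windows, 78.8% passed in every R62W replicate but 24.6% in every WT replicate. Of the R62W-only windows 38.8% passed in all replicates, and of the WT-only windows 15.8%.

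These exclusive sets lay in different parts of transcripts. Coding sequence held 55.0% of the R62W-only windows (95% exact interval 54.6 to 55.3) and 10.7% of the WT-only windows (9.64 to 11.8). Introns, with splice-site windows counted in, held 12.5% of the R62W-only windows (12.3 to 12.8) and 79.0% of the WT-only windows (77.5 to 80.4). The 3′ UTR held 22.8% and 5.0%, and the 5′ UTR 4.04% and 1.43%. Among shared windows, 42.2% were coding, 25.6% were in a 3′ UTR and 19.2% were intronic. Of all coding windows in either list, 88.1% were R62W only and 0.725% were WT only, whereas of all intronic windows 65.8% were R62W only and 17.5% were WT only. Windows of 1 gene are not independent, and with 1 window per gene the intronic shares were 5.34% of R62W-only and 49.0% of WT-only windows. With the R62W list cut by highest q to the length of the WT list, 8923 windows were exclusive to each. Most of the 8923 in WT are still in the full R62W list, since only 3139 WT windows are absent from it. Coding sequence then held 59.0% of the R62W-only and 28.8% of the WT-only windows, and introns held 6.80% and 46.9%.

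**Figure D1:**
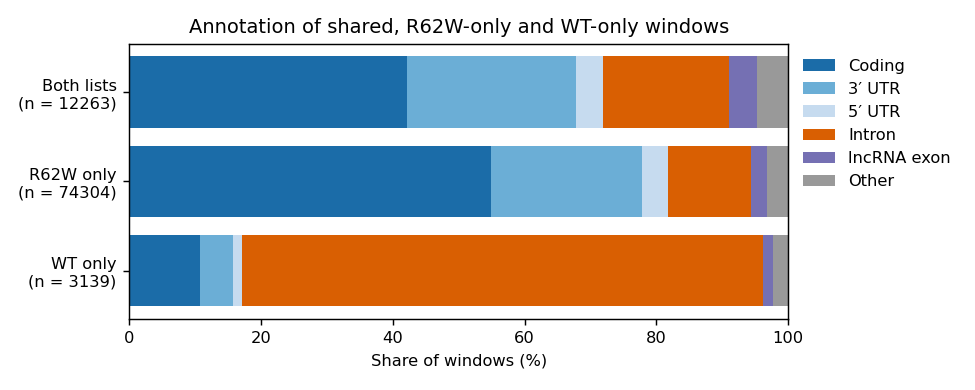
Share of windows (%, horizontal axis) by annotation for windows in both lists, in R62W only and in WT only. Coding sequence takes 55.0% of R62W-only windows, while introns take 79.0% of WT-only windows.

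By gene, the lists covered 7811 genes, of which 3276 had windows in both, 4504 in R62W only (57.7%) and 31 in WT only (0.397%). The 4504 genes were mostly thinly covered, with a median of 3 windows each and 1290 genes with a single window. Most R62W-only windows were in genes that WT also recovered. Of the 74304, 9.37% abutted a WT window of the same gene, 62.1% lay elsewhere in a gene with a WT window, and 28.6% were in a gene without one.

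Most of the genes with the highest numbers of R62W-only windows encode very large proteins, and a count of windows favours long transcripts. MACF1, a linker of actin and microtubules, had 45 shared and 153 R62W-only windows, 139 of them coding. MDN1, a giant ATPase that remodels 60S precursors, had 48 and 153, with 145 of the latter coding. RNF213, a ubiquitin ligase, had 17 and 149. HECTD4, of the HECT ubiquitin ligase family, had 31 and 140, and the ligase HUWE1 had 75 and 123. The histone methyltransferase KMT2A had 11 and 135, KIAA1109 had 13 and 123, and the nuclear envelope protein SYNE2 had 10 and 121. None of MACF1, MDN1, RNF213, HECTD4, HUWE1 and SYNE2 had a WT-only window. PRRC2B and CAPN15 were the most intronic of these genes. PRRC2B had 67 shared windows, 139 R62W-only windows of which 52 were intronic, and 26 WT-only windows, all intronic. CAPN15 had 57 shared windows, 127 R62W-only windows of which 58 were intronic, and 3 WT-only windows.

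Among genes with no WT window, ADCY1, an adenylyl cyclase, had the most in R62W, with 77 windows (36 coding and 41 in the 3′ UTR), 3906 pooled IP and 447 input reads, and a median log2 odds ratio of 2.72. The golgin GOLGA4 and the nucleoporin NUP98 had 38 each, KIAA1671 and MLLT10 had 37 each and the deubiquitinase OTUD4 had 35. The chromatin remodeller INO80 had 34, and the sterol transporter GRAMD1A had 33. In each of these 8 genes some windows passed in all 3 R62W replicates, from 8 of the 35 in OTUD4 to 52 of the 77 in ADCY1.

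WT-only windows lay mostly in introns, and a small part of the genes held many of them. Of 893 genes with a WT-only window, 63 had 10 or more. Their counts added up to 1688, of which 1580 were intronic, with a window annotated to several genes counted for each. There were 3139 WT-only windows in all. GSE1 had 148 WT-only windows, 147 intronic, with 6069 IP and 357 input reads, against 22 shared and 56 R62W-only windows. MIR34AHG, the host transcript of the microRNA miR-34a, had 106 (103 intronic), against 25 shared and 9 R62W-only. LMNA, the gene of the nuclear lamins A and C, had 80 (75 intronic) with a median log2 odds ratio of 4.17, against 28 shared and 5 R62W-only. EPHA2, a receptor tyrosine kinase, had 51 (49 intronic) with a median of 4.36 and only 34 input reads over all of them, against 6 shared and 5 R62W-only. The histone deacetylase HDAC5 had 68, all intronic, and the plexin PLXNB2 had 58 (57 intronic). REXO1 had 43 and the kinase CSNK1E had 42, all intronic in both. The pseudogenes PI4KAP2 and PI4KAP1 had 68 and 57, and their reads may belong to either copy or to PI4KA. Some of these genes had about as many R62W-only windows, mostly in exons: PLXNB2 had 57, of which 41 were coding, and REXO1 had 41, of which 27 were coding. In all, 95 genes had more WT-only than R62W-only windows.

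Of the 31 genes listed in WT and not in R62W, the non-coding RNA gene RP11-875O11.1 had the most windows, 10, all intronic, with 330 IP and 3 input reads. BASP1, a membrane-bound signalling protein, had 4 and the scaffold protein AJUBA had 2. The others named by number of windows were mitochondrially encoded: MT-ND4 had 3 windows, MT-ND2, MT-ND5 and the large rRNA MT-RNR2 had 2 each, and MT-ND3 had 1. RN7SL151P and ATG10 had 1 each. Of the 15 mitochondrially encoded transcripts, 8 had a window in either list, 5 of them in WT alone, and 13 of their 17 windows were WT only. Their enrichment was low, with a median log2 odds ratio of 0.79 in MT-ND4 and 0.52 in MT-RNR2, which had 45687 IP and 40102 input reads.

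**Figure D2:**
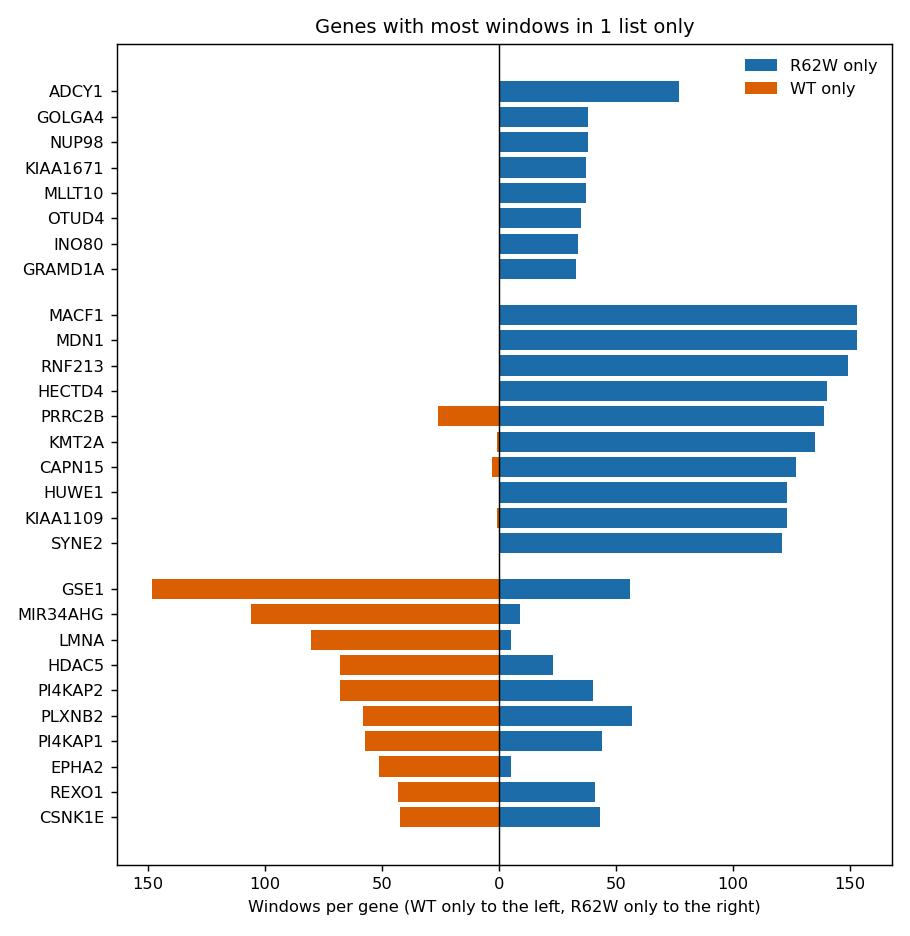
Windows per gene listed in R62W only (blue, to the right) and in WT only (orange, to the left), for 8 of the 10 genes with most R62W-only windows and no WT window, the 10 with most R62W-only windows and a WT window, and the 10 with most WT-only windows. MACF1 and MDN1 have 153 R62W-only windows each, and GSE1 has 148 WT-only windows.

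Of the single exclusive windows with most IP reads, U3 snoRNA windows led both sets. U3 guides early cleavages of the 18S rRNA precursor. A SNORD3A window at chromosome 17, 19188115 to 19188214 (GRCh38), was R62W only at 0.41 (0.34 to 0.48 over replicates), with 28585 IP reads. The window just before it, 19188016 to 19188114, was WT only at 0.77 (0.62 to 0.92 over the 2 passing replicates), with 80072 IP reads. The U3 copies are near identical, so the copy of origin is uncertain. The other R62W-only windows with most reads lay in mRNAs. Windows in 5′ UTRs were MIF with 2384 IP reads at 0.42, RPS19 with 2294 at 0.54, RPS14 with 1885 at 0.72, and the stress-response regulator ATF4 with 1778 at 1.27. PABPC1, the poly(A)-binding protein, had a coding window with 2115 reads at 0.80, and EIF5A had one in its 3′ UTR with 1796 reads at 0.62. The WT-only windows with most reads were otherwise mitochondrial or nuclear RNA, with MT-RNR2 at 0.43, MT-CO1 at 0.48, MT-ND1 at 0.78 and the nuclear non-coding RNA MALAT1 at 0.88. All of these values were below the median of their own class, 1.86 for R62W-only and 2.73 for WT-only windows.

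The shares of R62W-only and WT-only windows in each gene list are best read against those of all windows, 82.8% and 3.5%. For translation, 31 of 33 small subunit ribosomal protein genes had a window, 17 in both lists and 14 in R62W only. They held 161 R62W-only windows (71.2% of their windows) and 11 WT-only ones. All 11 were in RPS19 itself, the gene on the plasmid of the IP cells. RACK1, a ribosome-bound scaffold, had 17 R62W-only windows, RPS6 had 13, RPS28 had 10 and RPS2 had 9. The large subunit list had 46 of 48 genes, with 238 R62W-only windows (80.1%) and 6 WT-only ones, led by RPL3 with 21. Of 42 initiation factors, 39 had a window, with 465 R62W-only windows (85.5%) and 2 WT-only ones, and the scaffolds EIF4G3 and EIF4G1 led with 52 and 46. In the cytosolic aminoacyl-tRNA synthetase list, 18 genes had a window, with 99 R62W-only windows (95.2%) and 0 WT-only ones, led by QARS1 with 16.

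Ribosome assembly genes had R62W-only windows in their coding sequence. The small subunit processome list had 42 of 50 genes, 32 of them in R62W only, and 390 of 418 windows (93.3%) were R62W only, 269 of these coding. Over all features, 57.7% of genes and 82.8% of windows were R62W only, and 55.0% of R62W-only windows were coding. HEATR1 had 46, PDCD11 had 34 and BMS1, a GTPase, had 32. The 60S assembly list had 48 of 52 genes with 673 R62W-only and 5 WT-only windows, and its share of R62W-only windows was 87.5%, or 91.5% without MDN1. URB1 had 46, RRP1B had 34 and the nucleolar GTPase GNL3 had 30. The list of late 40S maturation factors stood apart, at 41.5% R62W only and 16.9% WT only. This rested on the kinases CSNK1D and CSNK1E, which held 61 of its 62 WT-only windows. Without them, 65 of its 67 windows were R62W only. TSR1 and LTV1, factors of cytoplasmic 40S maturation, had 27 and 11 windows in R62W and none in WT.

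In other functions, R62W-only shares were often at or above the 82.8% of all windows. Chromatin remodellers had 89.9% (1021 windows), led by BPTF with 85 and CHD7 with 84. Argonaute, TNRC6 and microRNA processing genes had 91.4%, with 61 in TNRC6A, 46 in DGCR8 and 41 in DICER1. Cohesin and condensin genes had 92.3%, kinesins and dyneins 88.3% and nuclear pore genes 88.0%, led by TPR with 64. PI3K-related kinases had 82.8%, with 116 in SMG1 and 95 in TRRAP. The lowest shares named here were actins and tubulins at 31.2%, nuclear long non-coding RNAs at 34.3% and U3 genes at 11.1%, where most windows were in both lists. Many other lists also lay below 82.8%. Among them were immediate early genes at 58.7%, nuclear-encoded oxidative phosphorylation at 69.5%, chaperones at 70.2% and glycolysis at 71.1%. Large ubiquitin ligases had 73.4%, SR proteins and hnRNPs 74.1% and core spliceosome proteins 78.3%. NEAT1 had 62 shared, 1 R62W-only and 4 WT-only windows, and MALAT1 had 30, 1 and 12. Of 23 erythroid genes, EPB41 alone had windows, 8 in R62W. None of 19 replication-dependent histone genes had a window.

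The list of DNA damage-induced genes was the one list with 100 or more windows in which more were WT only than R62W only. It was drawn up with earlier results of these data known and is not independent evidence of a direction. The list covers genes switched on after DNA damage that act in cell cycle arrest, apoptosis and DNA repair. Of 29 genes, 24 had windows, 21 of them in both lists, and 236 of the 723 windows (32.6%) were WT only, against 3.5% of all windows. Without MIR34AHG, which held 106, the share was 22.3%. Beside it, WT-only windows were most frequent in FDXR (27, 25 intronic), BBC3, which encodes the apoptosis inducer PUMA (25, all intronic), and CDKN1A, which encodes the cell cycle inhibitor p21 (24, 23 intronic). PHLDA3 had 15, and AEN and SESN2 had 9 each. The list also held 179 R62W-only windows, of which 58 were coding and 70 in a 3′ UTR. The most were in MDM2 (46), XPC (19), TNFRSF10B (13) and CDIP1 (11).

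Sizes were compared in the 2672 shared windows that passed in every replicate of both groups, where 3 values per group are known and the input sums had a ratio of 1.00. Windows too low to pass in a replicate of either group are not among them. Most had higher values in R62W. The median log2 odds ratio was 2.04 in WT and 2.63 in R62W, with a median difference, R62W minus WT, of 0.57. Over all 12263 shared windows, whose values cover only the passing replicates, the median difference was 0.26, and over the 2258 that passed in 2 replicates of each group it was 0.018. The median SD between replicates of a window was 0.41 in WT and 0.44 in R62W. In 847 windows (31.7%) all R62W values lay above all WT values, and in 40 (1.5%) all lay below. In limma with Benjamini-Hochberg adjustment, 1 window passed (0.0374%), while 719 had an unadjusted p under 0.05, of which 696 were higher and 23 lower in R62W. After the median was subtracted from each difference, 0 passed in limma (lowest adjusted p = 0.0647), and of 244 windows with an unadjusted p under 0.05, 76 were higher and 168 lower. The values are relative to each group's baseline, so they are best read against that median.

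Exons and introns differed in where they sat. Coding windows had a median difference of 0.69 over 898 windows, with 357 fully above and 4 fully below WT. Those in 3′ UTRs had 0.68 over 712 windows (280 above, 2 below), and lncRNA exons had 0.64 over 227. Windows in 5′ UTRs had 0.36 over 124, and intronic windows had 0.05 over 542, with 43 above and 23 below. The medians of intronic windows were 2.89 in WT and 2.80 in R62W. Near-identical copies (NBPF, NPIP, PKD1 pseudogene, MIR6724 and U3 genes), RPS19, SNX6 and EEF1A1 were left out in a setting added after seeing the data. The medians were then 0.53 over 2400 windows and -0.03 over 480 intronic ones, a change of sign for the latter.

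**Figure D3:**
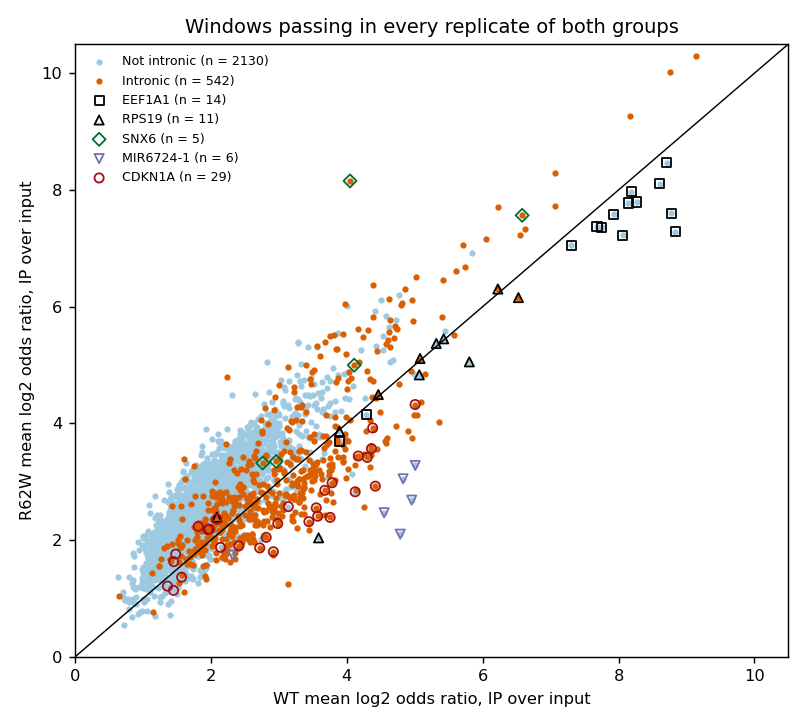
Mean log2 odds ratio of IP over input in WT (horizontal) and R62W (vertical) for the 2672 windows that passed in every replicate of both groups, with intronic windows in orange and 5 genes outlined. The line marks equal values. Most non-intronic windows lie above it, and those of EEF1A1 lie below it.

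The window that passed lay in an intron of SNX6, a sorting nexin gene, at chromosome 14, 34568910 to 34569008 (GRCh38). Its WT values were 3.35, 4.24 and 4.55 and its R62W values 7.93, 8.25 and 8.27, with 1436 and 24980 IP reads against 48 and 49 input reads. The groups were far apart, with a difference of 4.11 (SE 0.37, limma adjusted p = 0.024). With the median subtracted it did not pass, at a difference of 3.54 (limma adjusted p = 0.0647), and across all shared windows its limma adjusted p was 0.119. In RefSeq the window lies inside RPS19P3, a processed copy of RPS19 that spans 34568617 to 34569169. Of 7 RPS19 pseudogenes, this one alone had listed windows. Of its 6, 5 were shared, and the other 4 shared ones had differences of 0.39 to 0.98. The window from 34569009 to 34569107 had 6.58 in WT and 7.56 in R62W. The IP cells carried an RPS19 plasmid that the input cells lacked, and reads of SNX6, RPS19P3 and plasmid RNA cannot be told apart here.

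RPS19 itself had 17 shared, 5 R62W-only and 11 WT-only windows. Its 11 fully measured windows had a median difference of 0.02, with 297886 IP reads in WT and 250609 in R62W. The coding window at chromosome 19, 41861480 to 41861560, was lower in every R62W replicate. Its WT values were 3.45, 3.51 and 3.80 and its R62W values 1.47, 2.06 and 2.59, a difference of -1.55 (SE 0.35, limma adjusted p = 0.119). EEF1A1 encodes the elongation factor that brings aminoacyl-tRNA to the ribosome. Against 16.3% of all fully measured windows, all 14 of its windows had negative differences, with a median of -0.36. The lowest, at chromosome 6, 73521203 to 73521287, had WT values of 8.31, 8.71 and 9.50 and R62W values of 6.97, 7.25 and 7.61. Its difference was -1.56 (SE 0.38, limma adjusted p = 0.119), with 7913 and 2680 IP reads over 9 input reads in each group. The input cells had no plasmid, and whether plasmid RNA added to these EEF1A1 reads was not tested.

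Other windows at the high end did not pass the threshold. An intronic window of TANGO6, a gene of protein secretion, had WT values of 1.84, 1.87 and 2.99 and R62W values of 4.27, 4.69 and 5.44, without overlap (difference 2.57, SE 0.45, limma adjusted p = 0.119). The other 3 were in segmental duplications, PKD1P3 with NPIPA1 at 2.23, NBPF12 at 2.17 and NPIPA9 at 2.11, each with 4 to 17 input reads, so their reads may come from other copies.

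Large ubiquitin ligases had the highest median of all lists with 10 or more fully measured windows, 1.02 over 125 windows, of which 71 (56.8%) were fully above WT. The share fully above WT was 31.7% over all fully measured windows and 39.8% over coding ones, against which the counts per gene below are best read. Without HUWE1 the median of the list was 1.00. HUWE1 had 24 such windows with differences from 0.75 to 1.57, of which 23 did not overlap WT, and its summed IP reads were 6277 in WT and 12460 in R62W over 2039 input reads in each. One HUWE1 coding window is given that was chosen after its values were seen. It had WT values of 0.84, 1.18 and 1.51 and R62W values of 2.64, 2.79 and 2.81. HERC2 had a median of 1.02 over 38 windows, 18 of them fully above WT, and MYCBP2 had 1.02 over 29, with 15 above. MDN1 had 1.11 over 12 (6 above), MACF1 0.99 over 13 and PRRC2B 0.95 over 12. Histone acetyl- and methyltransferases had 0.98 over 69 windows, mRNA decay genes 0.98 over 19, giant cytoskeletal proteins 0.90 over 30 and PI3K-related kinases 0.92 over 8. Ribosomal protein genes lay lower, at 0.04 over 22 small subunit windows, or 0.36 over 11 without RPS19, and 0.11 over 10 large subunit windows. Chaperones had 0.15 over 42 and actins and tubulins 0.06 over 27. Elongation factors had -0.22 over 23 windows, or 0.69 over 9 without EEF1A1.

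**Figure D4:**
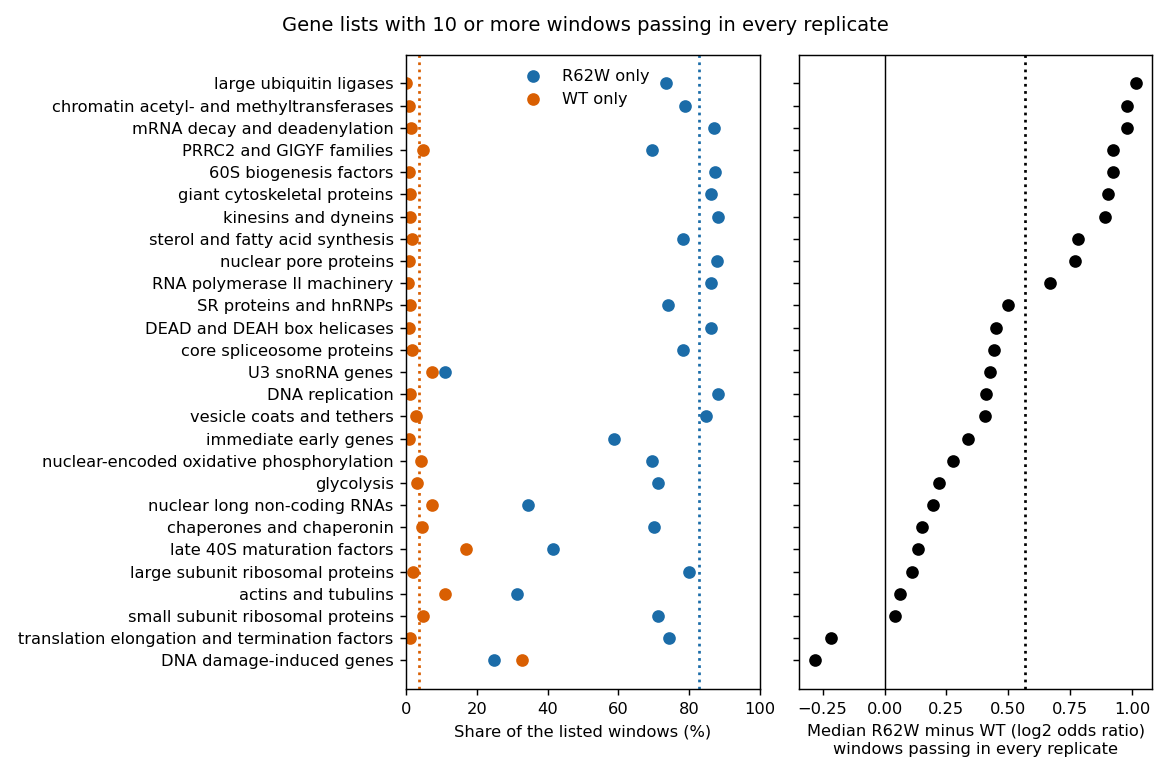
Gene lists with 10 or more fully measured windows. The left panel gives the share (%) of each list's windows that were R62W only (blue) or WT only (orange), and the right panel the median difference in log2 odds ratio, R62W minus WT. Dotted lines mark all windows, at 82.8%, 3.5% and 0.57. Large ubiquitin ligases lie highest at 1.02 and DNA damage-induced genes lowest at -0.28.

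Among lists with 10 or more fully measured windows, the DNA damage-induced genes had the lowest median, -0.28 over 126, and their exons and introns differed. The 59 windows outside introns had a median difference of 0.28 and the 67 intronic windows -0.64, against 0.05 for all 542 intronic windows. Of the 67, 63 were below 0, against 255 (47.0%) of all 542 intronic windows. Fully below WT were 13 of the 67, out of 23 such windows (4.24%) among all 542. Leaving out MIR34AHG, CDKN1A, BBC3 or FDXR in turn gave intronic medians of -0.68, -0.50, -0.69 and -0.59. These genes and windows were chosen after their values were seen. In CDKN1A an intronic window at chromosome 6, 36681518 to 36681616, had WT values of 4.07, 4.54 and 4.65 and R62W values of 2.76, 2.80 and 3.22. The groups did not overlap (difference -1.50, SE 0.29, limma adjusted p = 0.119), with 89 and 28 IP reads over 3 input reads in WT. Over 29 windows CDKN1A had a median of -0.70, with 5 fully below WT and none above. BBC3 had -0.48 over 23 (5 below, 2 above) and FDXR -0.58 over 20 (2 below, none above). Over all fully measured windows, 1.5% were fully below WT and 31.7% fully above. Over intronic ones the shares were 4.24% and 7.93%. BTG2, another listed gene, had 0.47 over 21 windows, and BAX, a pore-forming apoptosis protein, had 0.40 over 9. None of the windows of these genes passed limma over all windows, and differences between RNA levels and RNA recovery cannot be told apart without an input from transfected cells.

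The other genes with most WT-only windows varied in the windows measured in all replicates. LMNA had a median of -1.13 over 4, GSE1 -0.65 over 5, HDAC5 -0.31 over 5, REXO1 -0.48 over 10 and EPHA2 -0.69 over 2. CSNK1E had -0.25 over 26, of which 19 were below 0, and PI4KAP2 had -0.38 over 5. Of all fully measured windows 16.3% were below 0, and of intronic ones 47.0%. PI4KAP1 had 0.02 over 7 and PLXNB2 0.76 over 6. The lowest LMNA window, an intronic one at chromosome 1, 156118762 to 156118861, had WT values of 3.43, 4.22 and 5.09 and R62W values of 2.49, 2.56 and 2.65 (difference -1.68, SE 0.43, limma adjusted p = 0.119). An intronic window of EFCAB11 at chromosome 14, 89875095 to 89875194, with 242 input reads in WT, had WT values of 1.81, 3.76 and 3.82 and R62W values of 0.85, 1.26 and 1.65. Its lowest WT value was close to the highest R62W value (difference -1.87, SE 0.57, limma adjusted p = 0.122).

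The lowest difference of any window was beside the ribosomal RNA genes. Windows annotated to MIR6724-1 lie on chromosome 21 from 8205215 to 8205940, which ends 48 bases before the RefSeq start of the 45S pre-rRNA gene RNA45SN2. All 6 shared windows were lower in R62W, by differences of -0.58 to -2.69, and the 2 closest to the rRNA gene were WT only. The window from 8205407 to 8205494 had WT values of 3.57, 3.86 and 6.93 and R62W values of 1.77, 2.10 and 2.43 (difference -2.69, SE 0.85, limma adjusted p = 0.128), with 213 and 43 IP reads over 5 input reads each. Most windows had 4 to 8 input reads and G and C contents of 69 to 83.7%. This sequence is present beside many rRNA gene copies, so the position is uncertain.

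MicroRNA hairpins, the folded precursors from which mature microRNAs are cut, lay under few windows. Of 1562 RefSeq hairpins checked, 55 overlapped a listed window on their strand, 40 in R62W only, 13 in both and 2 in WT only. Of all windows, 82.8% were R62W only and 3.5% WT only, so R62W only is the commonest class for any window. The miR-17-92 cluster is shown because every hairpin of it was under an R62W-only window, together with its paralogs and the miR-15/16 and miR-221/222 pairs. Hairpins of the cluster lie in the same host gene and some share a window, so they are not independent. The mature sequences are from RefSeq (GRCh38.p14), with the seed, bases 2 to 8, which pairs with target mRNAs, in capitals. Those with seed AAAGUGC come first, then each other seed.
miR-17-5p: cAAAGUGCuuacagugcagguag
miR-20a-5p: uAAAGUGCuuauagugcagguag
miR-106b-5p: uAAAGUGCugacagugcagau
miR-18a-5p: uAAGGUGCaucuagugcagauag
miR-19a-3p: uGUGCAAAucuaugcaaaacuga
miR-19b-3p: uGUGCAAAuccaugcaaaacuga
miR-92a-3p: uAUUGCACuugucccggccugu
miR-25-3p: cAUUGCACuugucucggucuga
miR-15a-5p: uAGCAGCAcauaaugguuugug
miR-16-5p: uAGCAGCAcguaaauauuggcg
miR-221-3p: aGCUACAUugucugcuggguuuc
miR-222-3p: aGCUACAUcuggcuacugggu

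The windows are wider than the mature sequences and do not show that mature microRNAs were recovered. Of 13 hairpins of these families, the windows held the whole mature sequence in 8, part of it in 3 and none of it in 2, MIR17 and MIR92A1. In the cluster's host gene MIR17HG, on chromosome 13, the window over MIR20A had the highest R62W value, 3.32 (2.48 to 4.04), with 69 IP and 9 input reads. The window shared by MIR17 and MIR18A had 1.53 (1.02 to 2.12) and that over MIR19A 1.13 (0.89 to 1.53). MIR106B and MIR25, in an intron of MCM7, had 2.00 and 1.89 in R62W only. MIR15A had 4.14 in R62W only, with 26 IP reads and 1 input read. The sites of miR-16 and MIR222 were shared. MIR16-1 had 4.38 (3.85 to 4.92) in WT and 5.55 (4.68 to 6.34) in R62W, and MIR16-2 had 3.25 and 4.54. MIR222 had 2.67 in WT and 4.65 in R62W. These 3 passed in 2 WT and 3 R62W replicates, and their input counts of 1 to 8 leave the ratios poorly fixed. The replicate ranges overlapped at MIR16-1 and MIR16-2 but not at MIR222. No test was run on them, since not every WT replicate passed.

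Repeat elements, whose reads are counted per family over all genomic copies, gave 68 shared elements, 162 in R62W only (67.2%) and 11 in WT only (4.56%). Values of shared elements cover all replicates. Their median difference was 0.59, with 23 (33.8%) fully above WT and 1 (1.47%) fully below. In limma 1 of 68 passed (1.47%), and 19 had an unadjusted p under 0.05, 18 of them higher in R62W.

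Transfer RNAs, which carry amino acids to the ribosome, were the main group. Of 51 tRNA elements, 34 were shared, 17 were R62W only and 0 were WT only. All 34 had higher mean values in R62W, as did 62 of all 68 shared elements. The 34 are themselves among these 68, here and in the comparisons below. Differences of the 34 were 0.16 to 1.69, with a median of 0.89, against 0.59 for all elements. After subtraction of that 0.59 the difference was positive in 25 of the 34 and negative in the rest. Summed IP reads were 372655 in WT and 575646 in R62W over 100073 and 100129 input reads. In 12 of the 34 all R62W values lay above all WT values, near the share of all shared elements, 23 of 68 (33.8%). In limma 14 of the 34 had an unadjusted p under 0.05, against 19 of all 68. None of the 34 passed (lowest limma adjusted p = 0.113). The serine elements spanned nearly the whole range, with tRNA-Ser-TCA_ and tRNA-Ser-TCY highest of the 34, tRNA-Ser-TCA at 1.20, tRNA-Ser-TCG at 0.94 and tRNA-Ser-TCA(m) at 0.24. The element tRNA-Ser-TCY had WT values of 1.05, 1.71 and 2.24 and R62W values of 2.75, 3.44 and 3.75, with no overlap and 10401 and 27948 IP reads (difference 1.64, SE 0.40, limma adjusted p = 0.113). The element tRNA-Ser-TCA_ had 0.76, 1.25 and 2.14 in WT and 2.50, 2.90 and 3.81 in R62W (difference 1.69, SE 0.47, limma adjusted p = 0.134). The serine element tRNA-Ser-AGY was R62W only at 2.06, with 28462 IP and 4873 input reads. Next after the highest pair were tRNA-Gln-CAA at 1.37, tRNA-Thr-ACG_ at 1.22 and tRNA-Tyr-TAC at 1.21. Replicates overlapped for the glutamine and threonine elements. Copies of 1 tRNA share sequence, so these elements are not independent.

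**Figure D5:**
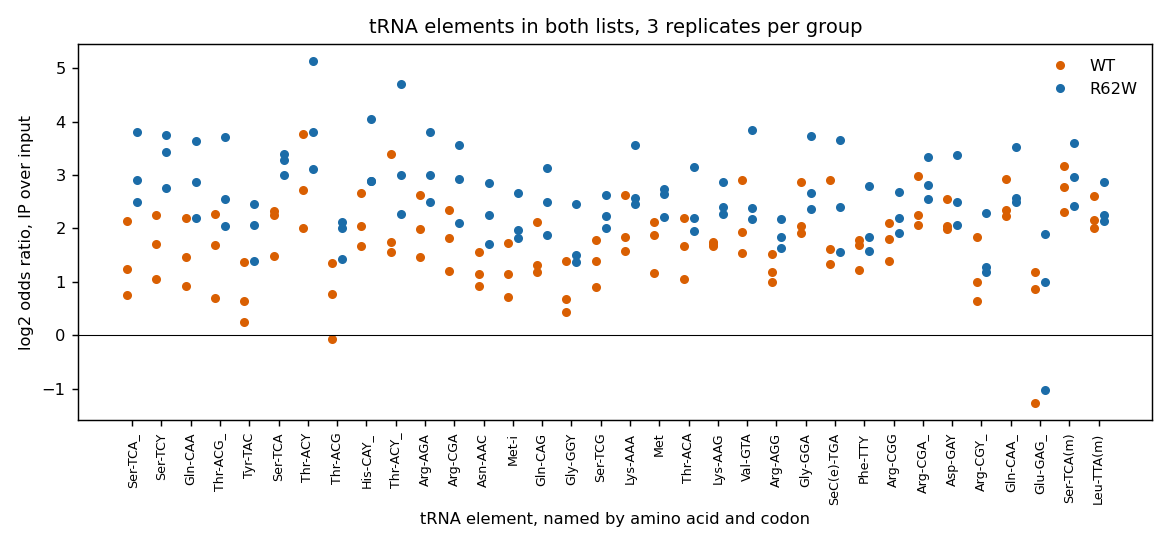
Log2 odds ratio of IP over input (vertical axis) for each of the 3 WT (orange) and 3 R62W (blue) replicates, for the 34 tRNA elements in both lists, ordered by their mean difference. The R62W mean is higher in all 34, and in 12 of them the 2 groups do not overlap. Of all 68 shared elements, the 34 among them, 62 have a higher R62W mean and 23 lie fully above WT.

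Simple repeats made up most R62W-only elements, with 119 R62W only, 21 shared and 3 WT only. Those with a unit of pyrimidines alone had 29 R62W only, 8 shared and 0 WT only, those of G and T alone had 15, 3 and 0, and those of purines alone 10, 1 and 0. Of the 4 with a unit of C and G alone, 2 were WT only. The largest R62W-only simple repeats by IP reads were the GA-rich element with 43226 at 0.75, the G-rich element with 34812 at 0.66, and (T)n with 24892 at 0.95. Next after tRNA-Ser-AGY and (T)n came tRNA-Ala-GCY_ with 15889 at 1.58. LINE-1 elements, copies of a retrotransposon, had 10 in R62W only and 1 shared.

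The element that passed was lower in R62W. It was (CGAGCCG)n, with WT values of 4.19, 4.47 and 5.42 and R62W values of 2.23, 2.28 and 2.62, without overlap, and 1076 and 194 IP reads over 20 and 18 input reads (difference -2.32, SE 0.36, limma adjusted p = 0.0279). In limma with a trend and robust variance it did not pass (adjusted p = 0.0805). Its G and C content was 81.8%. The WT-only elements with most IP reads included the simple repeats (CG)n at 1.42 (1.02 to 1.80) with 2975 reads and (GCCGCG)n at 1.59 (0.89 to 1.99) with 1584, of like composition. The U3 element was WT only at 0.54 (0.27 to 0.76), with 343998 IP and 279967 input reads, and LTR5B had 0.67 and MSR1 0.95. The other 4 shared elements at the low end, LTR25-int at -0.24, MamGypLTR3 at -0.22, MER91B at -0.15 and (AGAGAC)n at -0.12, had overlapping replicates.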

How the data were processed

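The data are eCLIP windows and repeat elements of 3 R62W and 3 WT libraries. Per the submitters' processing notes, fastp, STAR and the build GRCh38 were used. Neither versions nor the window caller are given in the sources used here. For each IP group the authors deposited a table of windows and one of repeat elements, made from all replicates. Per the file headers, IP and input columns are read counts summed over replicates. Per the file headers, enrichment is a log2 odds ratio given as lowest, mean and highest. The authors' own p-values and q-values for enrichment, the fraction of G and C bases and another quantity, the number of passing replicates, were also deposited. From the values, the highest q in either list was under 0.2. Sums and values of a window cover only its passing replicates, so sizes were compared in windows passing in all of them. Library totals are not given in these tables, so depth is known only as counts per window.

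With 3 values, the lowest, mean and highest fix the middle one. The test was limma 3.58.1 under R 4.3.3 (functions lmFit and eBayes), with Benjamini-Hochberg adjustment at 0.05 over all windows or elements tested. Pooled counts allow no count model. With 3 against 3, the smallest exact permutation p would be 0.1. The scripts were tested on simulated data. Overlaps by position used bedtools 2.31.1 and tables Python 3.11. Coordinates are 1-based.

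The members, the 45 gene lists and the tests were chosen with earlier results of these data known. Genes were named by rule: the 10 with most windows in each exclusive class, up to 10 listed in WT alone, the windows or elements with most reads or at either end of the differences, those past the threshold, RPS19, and up to 4 and 2 members per list with most R62W-only and WT-only windows. Others are said to have been chosen after seeing their values. Alternatives were stricter q, replicate and input filters, equal list lengths, overlap matching, centring, other limma settings and pooled count ratios. Hairpins on chromosome 8, XIST, a few genes that these rules name and the sequences of windows are not reported here.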

Additional observations from a re-analysis of the deposited data

How the results depend on the processing

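With a highest q of at most 0.05, 2057 windows were in both lists, 20559 in R62W only and 930 in WT only. Coding sequence then held 55.8% of R62W-only and 18.8% of WT-only windows, and introns 8.55% and 60.1%. Genes numbered 1062 in both lists and 66 in WT only, and repeat elements 45 in both, 94 in R62W only and 5 in WT only. Among windows passing in every replicate of their group, the numbers were 2672, 35830 and 844. Coding shares were 57.1% and 4.03%, intronic shares 8.25% and 87.1%, and 1070 genes were in both lists. With lists of equal length, 6479 windows were shared and 8923 exclusive to each, with coding shares of 59.0% and 28.8% and intronic shares of 6.80% and 46.9%. With at least 10 pooled input reads, the numbers were 7656, 44282 and 704. Coding shares were 60.5% and 30.5%, intronic shares 5.31% and 48.4%, and 19 genes were in WT only. With 1 window per gene, coding shares were 50.6% and 28.9% and intronic shares 5.34% and 49.0%. With at least 3 windows per gene, 1295 genes were in both lists and 16 in WT only. In each of these settings R62W-only windows were more often coding and WT-only windows more often intronic. Under the q, replicate, length and input settings, a window or gene exclusive to 1 list may still be in the other full list.

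In limma, the count of windows past the threshold was 1 in the design used and 0 when centred, with a trend and robust variance, or over all shared windows. In those 3 settings 244, 720 and 1252 had an unadjusted p under 0.05. The SNX6 window's adjusted p ranged from 0.00361 to 0.119 over these and the other limma settings. For repeat elements the count was 0 with a trend and robust variance, where 18 had an unadjusted p under 0.05. The median difference of 0.57 was -0.33 when the lowest R62W value was set against the highest WT value, and 1.40 in the opposite case, by construction of these extremes. None of the windows and elements named at either end of the differences changed direction in limma or, for windows, in centred pooled counts. Other named ones were not checked in this way. Positive differences smaller than the subtracted median turn negative when centred.

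No paired analysis was possible because the tables give only the lowest, mean and highest over unlabelled replicates. Single replicates could not be left out for the same reason. Low input counts limit the ratios of intronic and WT-only windows most.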
